A study of Homo sapiens with 2 samples.

Results

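The endoplasmic reticulum folding and degradation genes described here are 44 genes of protein entry, folding, quality control and disposal, chosen by gene name from the 60978 genes of the deposited expression table. Each name matched 1 gene. The series concerns M1 macrophage exosomes and CEL in triple-negative breast cancer. The 2 libraries analysed here are of the cancer cells alone: MDA-MB-231 cells, an established human line, kept 24 h with 1 µM CEL (the CEL library), and the same line kept 24 h without it (the Control library). The labels do not spell out CEL and name no vehicle for the Control culture. Levels are FPKM, reads divided by gene length and by library total, and the libraries held 17199398 (CEL) and 14821148 (Control) reads in genes.

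Each group is a single library, so differences could not be set against a spread between cultures, and what is called higher or lower is so in CEL relative to Control. The log2 fold is log2((CEL FPKM + 1)/(Control FPKM + 1)). Genes that reached 1 FPKM in either library are called measured, and a measured gene counted as higher or lower once its log2 fold was 0.585 or more away from 0, a change of 1.5-fold. Beside the log2 fold, the text gives the ratio of the levels themselves, CEL over Control, with a 95% interval computed from the read numbers (exact conditional binomial). That interval covers counting error only. As a check of the labelled cells, 6 of 6 markers of the line (VIM, CD44, ITGB1, CAV1, AXL, KRT18) stood between 231 and 1166 FPKM in CEL and between 145 and 1817 FPKM in Control. Of 6 receptor and luminal genes, ESR1 and PGR had 0 reads in both libraries, which allows up to 3 reads each, and CDH1 stood at 0.183 FPKM in CEL and 0.791 FPKM in Control. The other 3 were detected: ERBB2 at 48.8 FPKM in CEL and 71.7 FPKM in Control, EPCAM at 8.97 FPKM in CEL and 17.2 FPKM in Control, and GATA3 at 8.60 FPKM in CEL and 10.8 FPKM in Control. RNA levels were not compared with a receptor-positive line here. The 8 leukocyte markers summed to 3.75 FPKM in CEL and 4.92 FPKM in Control, with CD163 at 0 in both and 2 of the 8 (CD14 and CSF1R) reaching 1 FPKM. Their part in the results was not tested.

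Secreted and membrane proteins enter the endoplasmic reticulum through the SEC61 channel, where the TRAP complex (SSR genes) stands beside the channel and helps proteins in. Inside, the HSP70 family chaperone BiP (HSPA5), the lectins calreticulin and calnexin and the protein disulfide isomerases fold them. Proteins that fail are recognised by EDEM proteins, OS9 and ERLEC1 and sent back to the cytosol through the SYVN1 and SEL1L ligase complex for the proteasome. When unfolded proteins build up, the sensors ERN1 (IRE1), ATF6 and EIF2AK3 (PERK) start the unfolded protein response, in which XBP1 and ATF6 raise many of these genes through promoter elements that pair a CCAAT box, bound by NF-Y, with CCACG.

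Those elements are shown because 12 of these genes share them. As many of these genes are known to be raised through such elements, their share is no independent finding. In RefSeq promoters (GRCh38.p14, 250 bases before each start, available for 39 of the 44 genes), the element ERSE (CCAAT, then 9 bases of any kind, then CCACG, on either strand) was found in 9 of 39 genes (23.1%). It was found in 26 of 35116 promoters of all genes (0.0740%), and in 16 of 9704 measured genes with a promoter (0.165%). The shorter ERSE-II (ATTGG, 1 base of any kind, then CCACG, on either strand) shares its CCACG with ERSE. It was found in 3 of the 39 genes and in 18 of all promoters (0.0513%). Of 9704 measured genes with a promoter, 14 (0.144%) had it. The matches are printed on the strand of the gene, with the fixed bases of each element in capitals, so a match on the other strand begins with CGTGG.
HSPA5, chr9:125241391-125241409, minus strand: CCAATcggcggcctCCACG
HSP90B1, chr12:103930216-103930234, plus strand: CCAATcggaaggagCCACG
HSP90B1, chr12:103930321-103930339, plus strand: CGTGGtgcggcgcgATTGG
CRELD2, chr22:49918554-49918572, plus strand: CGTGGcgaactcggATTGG
CALR, chr19:12938384-12938402, plus strand: CGTGGtcgaccatcATTGG
CANX, chr5:179698778-179698796, plus strand: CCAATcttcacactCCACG
PDIA6, chr2:10812853-10812871, minus strand: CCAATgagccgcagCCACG
ERO1B, chr1:236282183-236282201, minus strand: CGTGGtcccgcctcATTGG
SERP1, chr3:150546710-150546728, minus strand: CGTGGagacagcgaATTGG
XBP1, chr22:28800603-28800621, minus strand: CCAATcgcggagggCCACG
HYOU1 (ERSE-II), chr11:119057380-119057390, minus strand: CGTGGtCCAAT
HYOU1 (ERSE-II), chr11:119057274-119057284, minus strand: CGTGGtCCAAT
HERPUD1 (ERSE-II), chr16:56932025-56932035, plus strand: ATTGGgCCACG
SDF2L1 (ERSE-II), chr22:21642114-21642124, plus strand: CGTGGaCCAAT
The promoter of HSPA5, the gene of BiP, shows such an element in its setting, with the element 66 to 48 bases before the start and a TATA-like stretch after it (chr9:125241344-125241493, minus strand, the 150 bases before the start).
HSPA5: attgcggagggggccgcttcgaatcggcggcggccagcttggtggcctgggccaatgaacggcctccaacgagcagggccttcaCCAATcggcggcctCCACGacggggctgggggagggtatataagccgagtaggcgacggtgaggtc
A match is a run of letters, and no binding was measured here. Both HSP90B1 matches and those of CANX and SERP1 lie wholly within exons annotated in GENCODE 29 (any gene, either strand). All 12 genes with either element were measured, and their log2 folds ran from -0.64 (CALR) to 0.46 (SERP1), with a median of -0.16. Of these 12, 0 were at least 1.5-fold higher, beside 8.97% of all measured genes. At least 1.5-fold lower was 1, CALR, beside 10.2% of all measured genes. The 27 measured genes with a promoter but neither of these elements ran from -0.66 to 1.81, with a median of 0.07, and held 4 higher and 1 lower. Those 4 were SEC61G, SEC61B, SSR3 and TXNDC5, the last on 39 reads in CEL and 6 reads in Control. SSR3 and TXNDC5 have another motif of this response, given below with SSR3. Whether the elements bear on the log2 folds was not tested.

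Of the 44 genes, 43 were measured. Most lay within 1.5-fold, 37 of 43 (86.0%), beside 80.9% of all measured genes. Of 7 genes of protein entry, 3 were higher in CEL and 4 had log2 folds from 0.40 to 0.58, within the mark. Calreticulin and the transcription factor gene CREB3L2 were lower. In all, 4 of 43 (9.30%) were at least 1.5-fold higher (SEC61G, SSR3, TXNDC5 and SEC61B), beside 8.97% of 13745 measured genes of the transcriptome. SEC61B and TXNDC5 were not counted as higher in every setting, as given with each gene. TXNDC5 passed the 1 FPKM filter through CEL alone. At least 1.5-fold lower were 2 of 43 (4.65%), CALR and CREB3L2, beside 10.2% of all measured genes. The count of higher genes is thus near the background. Over all measured genes 1233 were higher and 1398 lower, a split that became 930 and 1761 with upper quartile scaling and 799 and 1845 with the trend by gene length removed. On the scale with 1 FPKM added, the 1 gene at least 2-fold higher was SEC61G (2.33% of 43, beside 2.70% of all), and 0 were at least 2-fold lower (beside 3.24%). The median log2 fold of the 43 was -0.06, beside 0.00 over all measured genes, whose quartiles were -0.29 and 0.28. Summed over the 44 genes, reads made up 0.966% of the CEL library and 1.01% of the Control library, a ratio of 0.958 (counting interval 0.952 to 0.965). In bulk RNA, a change in all cells and a change in part of them cannot be told apart.

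**Figure D1:**
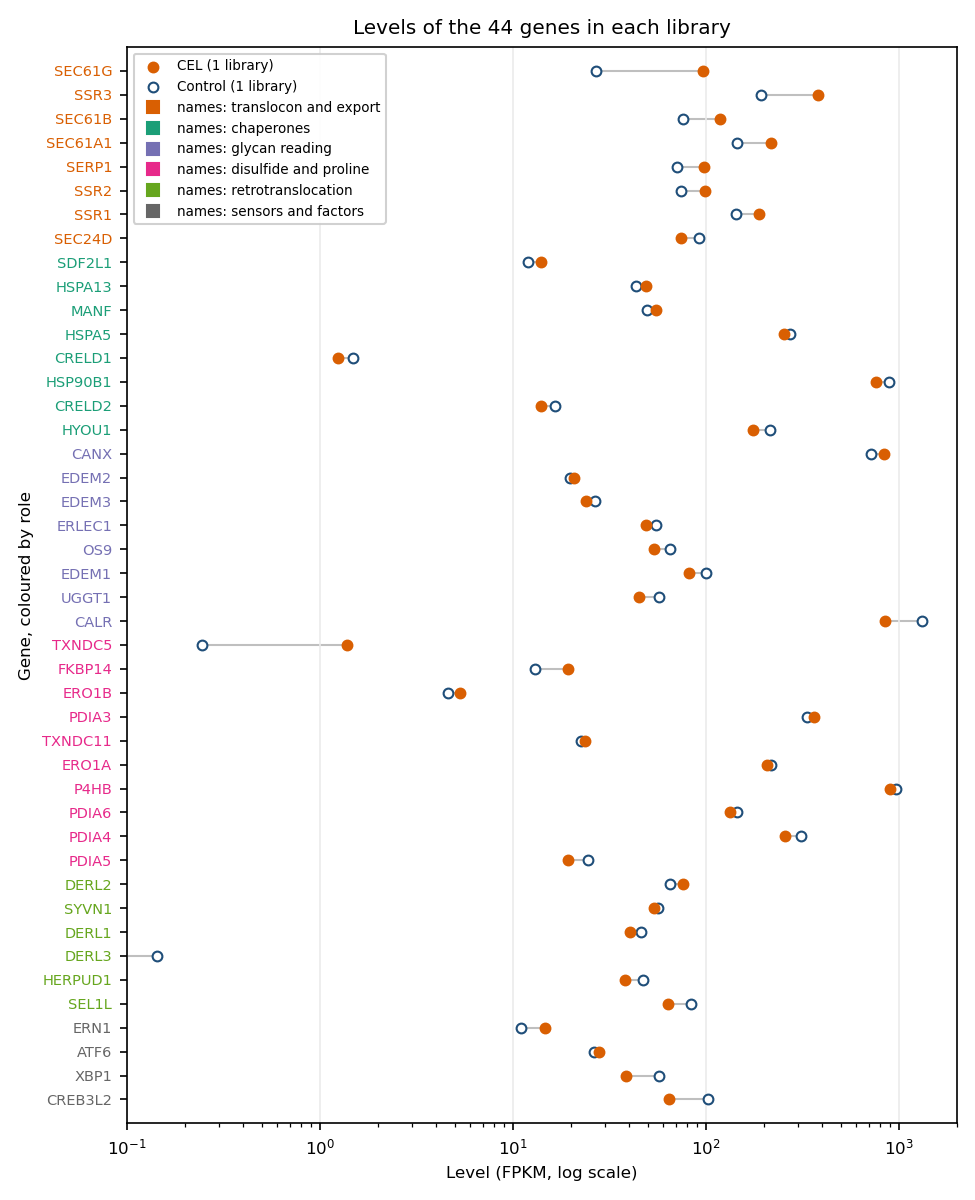
Level of each of the 44 genes in FPKM (log axis) in the CEL library (filled) and the Control library (open), 1 library each, with gene names coloured by role. The open and filled points nearly coincide for most genes and lie furthest apart for TXNDC5 and SEC61G; DERL3, listed at 0 in CEL, has a Control point only.

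The genes spanned a wide range of levels. In CEL the highest were P4HB at 904 FPKM, CALR at 849.8 FPKM, CANX at 837 FPKM and HSP90B1 at 763 FPKM. In Control the order began with CALR at 1322 FPKM, followed by P4HB at 968 FPKM, HSP90B1 at 884 FPKM and CANX at 713 FPKM. These levels depend on the deposited length, which equalled the mean length of a gene's GENCODE 29 transcripts for 70.3% of genes and so counts short fragments. When the reads were divided by the longest annotated transcript instead, CALR was first in both libraries, at 407 FPKM in CEL and 634 FPKM in Control. HSPA5 then stood at 256 FPKM in CEL and 274 FPKM in Control.

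The genes of protein entry into the endoplasmic reticulum shared a direction. They were set apart from SEC24D, an export gene of the same role group, after the values were seen. SEC61A1, SEC61B, SEC61G, SSR1, SSR2, SSR3 and SERP1, the last a small membrane protein that associates with SEC61, had log2 folds above 0 in 7 of 7, beside 50.2% of all measured genes. The counting interval lay above 1 for 7 of 7, beside 29.9% of all measured genes. That background is unlike them in depth. The 7 held 1055 to 7125 reads each in CEL, the interval narrows with reads, and many measured genes have few. Their reads made up 0.160% of the CEL library and 0.103% of the Control library, a ratio of 1.55 (1.52 to 1.58). The other 37 genes together held 0.807% of the CEL reads and 0.905% of the Control reads, a ratio of 0.891 (0.884 to 0.898). All 7 also stayed above 0 under each of the 8 other settings tried.

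SEC61G (ENSG00000132432; GRCh38 chromosome 7, 54752250 to 54759974, minus strand), the small gamma subunit of the channel, stood at 96.4 FPKM (1055 reads) in CEL and 26.8 FPKM (253 reads) in Control. It was 3.59-fold higher (3.13 to 4.14), with a log2 fold of 1.81. On the scale with 1 FPKM added this was the largest of the 43, whereas TXNDC5 had the larger plain ratio and, with a pseudocount of 0.1 FPKM, the larger log2 fold (2.09, against 1.84 for SEC61G). SEC61B, the beta subunit, stood at 118 FPKM in CEL and 76.4 FPKM in Control, 1.54-fold higher (1.40 to 1.70) with a log2 fold of 0.62. It was within the 1.5-fold mark in 4 of the 8 other settings, at 0.58 on the TPM scale, 0.57 scaled to the median ratio, 0.53 scaled to the upper quartile and 0.11 with the length trend removed. SEC61A1, the alpha subunit that forms the pore, stood at 217 FPKM in CEL and 145 FPKM in Control, a ratio of 1.497 (1.44 to 1.56), just within the 1.5-fold mark with a log2 fold of 0.58. The subunits of this channel therefore differed in the size of the ratio: the level of SEC61G relative to SEC61A1 was 0.444 in CEL and 0.185 in Control, while that of SEC61A1 relative to SEC61B was 1.84 in CEL and 1.90 in Control.

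The TRAP complex showed the same kind of inequality. SSR3 (ENSG00000114850; chromosome 3, 156540140 to 156555184, minus strand), its gamma subunit, stood at 380.2 FPKM (6794 reads) in CEL and 192 FPKM (2960 reads) in Control, 1.98-fold higher (1.89 to 2.07). SSR1, the alpha subunit, stood at 189 FPKM in CEL and 143 FPKM in Control, a ratio of 1.32 (1.27 to 1.37). SSR2, the beta subunit, stood at 99.5 FPKM in CEL and 74.6 FPKM in Control, a ratio of 1.33 (1.24 to 1.43). The alpha and beta subunits thus had like ratios, with overlapping intervals, and SSR3 lay above both. SERP1 stood at 97.8 FPKM in CEL and 70.8 FPKM in Control, a ratio of 1.38 (1.30 to 1.47).

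One of the SSR3 starts in RefSeq has the sequence TGACGTGG, the core of the unfolded protein response element, on the other strand. It is shown in capitals (chr3:156554147-156554178, minus strand) because SSR3 is the one SEC61 or SSR gene of the 7 with any of the motifs searched. This 8-letter core was found in 3 of 39 genes (HYOU1, SSR3 and TXNDC5) and in 215 of all promoters (0.612%). Of 9704 measured genes with a promoter, 94 (0.969%) had it. The CGTGG of the core overlaps an ERSE-II match in HYOU1. Of the 3 of 39 genes, SSR3 and TXNDC5 (on few reads) were at least 1.5-fold higher, beside 8.97% of all measured genes. The log2 folds were -0.28 (HYOU1), 0.98 (SSR3) and 0.93 (TXNDC5).
SSR3: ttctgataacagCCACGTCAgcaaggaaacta

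SEC24D, a cargo-binding subunit of the COPII coat that carries proteins out of the endoplasmic reticulum, went the other way. It stood at 74.7 FPKM in CEL and 92.4 FPKM in Control, a ratio of 0.809 (0.765 to 0.855). It lay within the 1.5-fold mark.

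**Figure D2:**
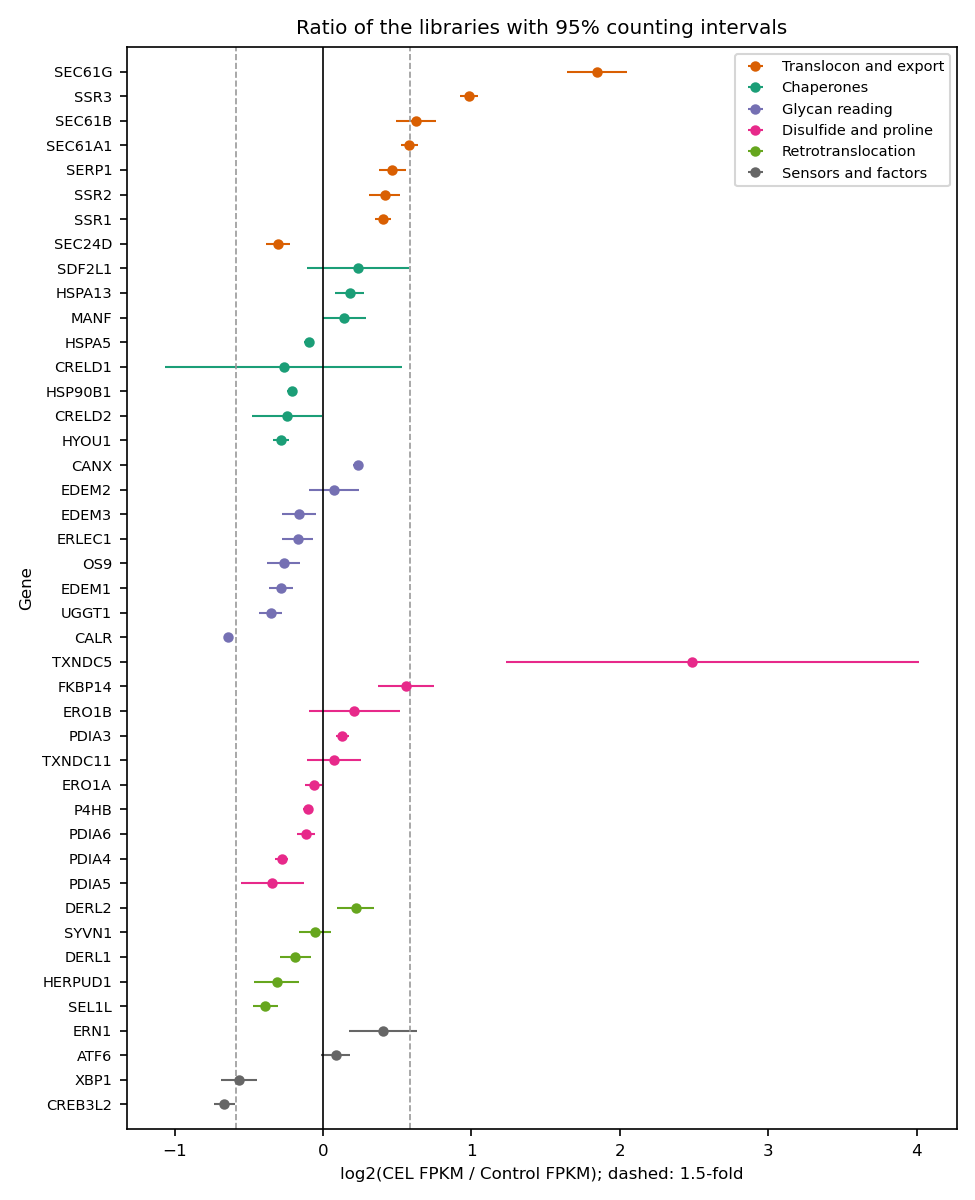
Ratio of CEL over Control FPKM (log2 axis) for the 43 genes with reads in both libraries, grouped by role, with exact 95% counting intervals and dashed lines at 1.5-fold. Of the translocon and export genes, 7 of 8 lie right of 0, while the other roles lie between the dashed lines except TXNDC5, CALR and CREB3L2.

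Of the 8 chaperone genes, 8 lay within 1.5-fold, beside 80.9% of all measured genes, with log2 folds from -0.28 to 0.22 and a median of -0.12. HSPA5, whose product BiP binds unfolded chains and holds the sensors inactive, stood at 255 FPKM (17206 reads) in CEL and 273 FPKM (15855 reads) in Control, a ratio of 0.935 (0.915 to 0.956). HSP90B1, the HSP90 of this compartment, stood at 763 FPKM in CEL and 884 FPKM in Control, a ratio of 0.864 (0.845 to 0.883). HYOU1, a large HSP70 relative that exchanges nucleotide on BiP, stood at 176 FPKM in CEL and 214 FPKM in Control, a ratio of 0.822 (0.790 to 0.854). All 3 abundant chaperones had ratios below 1 and within 1.5-fold, but the log2 fold of HSPA5, -0.10, was 0.02 with the length trend removed.

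The remaining chaperone genes were lower in level and less precise. HSPA13, another HSP70 relative, stood at 48.9 FPKM in CEL and 43.2 FPKM in Control. MANF, a secreted BiP cofactor, stood at 54.9 FPKM in CEL and 49.7 FPKM in Control. SDF2L1, which works with BiP and its HSP40 partners, stood at 14.03 FPKM in CEL and 11.9 FPKM in Control. Of these 3, only HSPA13 had a counting interval that excluded 1 (1.06 to 1.21). CRELD2, a secreted stress-responsive protein, stood at 13.95 FPKM in CEL and 16.5 FPKM in Control, a ratio of 0.844 (0.716 to 0.995). CRELD1, with 28 reads in CEL and 29 reads in Control, had too few reads to show a difference of this size, with a ratio of 0.832 (0.477 to 1.45).

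Among the 8 genes that read N-glycans, calreticulin stood apart from its membrane-bound relative calnexin. CALR (ENSG00000179218; chromosome 19, 12938578 to 12944489, plus strand) stood at 849.8 FPKM (13345 reads) in CEL and 1322 FPKM (17888 reads) in Control, 1.56-fold lower (1.52 to 1.59). CANX stood at 837 FPKM (16881 reads) in CEL and 713 FPKM (12385 reads) in Control, a ratio of 1.17 (1.15 to 1.20). The CALR level was thus 1.01 times the CANX level in CEL and 1.85 times in Control. PDIA3, the disulfide isomerase that works with both lectins, stood at 365 FPKM in CEL and 333 FPKM in Control, a ratio of 1.09 (1.06 to 1.13). Of its exonic bases, 18.9% overlap genes on the other strand, and its near copy PDIA3P1 stood at 2.90 FPKM in CEL and 2.49 FPKM in Control, so the PDIA3 value is uncertain to that extent.

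The other 6 glycan readers lay within 1.5-fold, beside 80.9% of all measured genes. UGGT1, which re-tags misfolded glycoproteins for another round with the lectins, stood at 45.1 FPKM in CEL and 57.5 FPKM in Control, a ratio of 0.784 (0.743 to 0.827). EDEM1, which trims mannose to mark proteins for disposal, stood at 82.2 FPKM in CEL and 100.05 FPKM in Control, a ratio of 0.821 (0.777 to 0.869). Its relative EDEM2 stood at 20.7 FPKM in CEL and 19.7 FPKM in Control, a ratio of 1.05 (0.936 to 1.18). EDEM3 stood at 24.0 FPKM in CEL and 26.8 FPKM in Control, a ratio of 0.894 (0.827 to 0.966). Of these 3 relatives, EDEM1 and EDEM3 had intervals below 1. OS9, a lectin that hands trimmed proteins to the SEL1L complex, stood at 54.1 FPKM in CEL and 65.1 FPKM in Control, a ratio of 0.832 (0.771 to 0.897). ERLEC1, a lectin of the same step, stood at 49.1 FPKM in CEL and 55.3 FPKM in Control, a ratio of 0.888 (0.825 to 0.956). Over all 8 genes the median log2 fold was -0.21, with 6 of 8 below 0, beside 49.8% of all measured genes.

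The 10 disulfide and proline isomerisation genes were spread on both sides of 0. P4HB, the abundant protein disulfide isomerase, stood at 904 FPKM in CEL and 968 FPKM in Control, a ratio of 0.934 (0.912 to 0.956). PDIA4 stood at 256 FPKM in CEL and 310.1 FPKM in Control, a ratio of 0.824 (0.799 to 0.851). PDIA5 stood at 19.3 FPKM in CEL and 24.5 FPKM in Control, a ratio of 0.789 (0.681 to 0.913). The isomerase PDIA6 stood at 134 FPKM in CEL and 145 FPKM in Control, a ratio of 0.923 (0.886 to 0.963), and 25.2% of its exonic bases overlap another gene. P4HB and the PDIA genes thus lay close to the Control level, with ratios from 0.789 (PDIA5) to 1.09 (PDIA3).

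The oxidases that recharge these isomerases were nearly level too. ERO1A stood at 208 FPKM in CEL and 217 FPKM in Control, a ratio of 0.957 (0.919 to 0.997). ERO1B, the scarcer paralog, stood at 5.35 FPKM in CEL and 4.63 FPKM in Control, a ratio of 1.16 (0.935 to 1.43). FKBP14, a prolyl isomerase linked to collagen folding, stood at 19.2 FPKM (621 reads) in CEL and 13.1 FPKM (364 reads) in Control, a ratio of 1.47 (1.29 to 1.68) that straddles the 1.5-fold mark. TXNDC11, a thioredoxin-domain protein, stood at 23.7 FPKM in CEL and 22.5 FPKM in Control, a ratio of 1.05 (0.929 to 1.19).

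TXNDC5, another disulfide isomerase, was called higher on few reads. It stood at 1.38 FPKM (39 reads) in CEL and 0.246 FPKM (6 reads) in Control, 5.60-fold higher (2.36 to 16.2), and its log2 fold on the scale with 1 FPKM added was 0.93. It passed the 1 FPKM filter through CEL alone, the library in which it was higher. Of its exonic bases, 60.6% overlap the read-through gene BLOC1S5-TXNDC5 on the same strand, which is listed at 0 in both libraries. Its level is therefore uncertain. It lay below a filter at 5 FPKM and was no longer counted as higher with a pseudocount of 5 FPKM (log2 fold 0.28).

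The genes of retrotranslocation and ubiquitination, the last steps before the proteasome, were all within 1.5-fold where measured, beside 80.9% of all measured genes. SEL1L, the scaffold of the ligase complex, stood at 63.8 FPKM (2218 reads) in CEL and 83.5 FPKM (2501 reads) in Control, a ratio of 0.764 (0.721 to 0.810). SYVN1, the ligase itself, stood at 54.2 FPKM in CEL and 56.2 FPKM in Control, a ratio of 0.963 (0.893 to 1.04). HERPUD1, a stress-induced partner that recruits substrates to it, stood at 38.0 FPKM in CEL and 47.1 FPKM in Control, a ratio of 0.805 (0.725 to 0.895). Only the scaffold and HERPUD1 among these 3 had intervals below 1.

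The Derlins form part of the channel by which proteins leave. DERL1 stood at 40.3 FPKM in CEL and 45.9 FPKM in Control, a ratio of 0.879 (0.817 to 0.946). DERL2 stood at 76.3 FPKM in CEL and 65.5 FPKM in Control, a ratio of 1.16 (1.07 to 1.27). DERL1 and DERL2 lay on opposite sides of 1, each by little. DERL3, the Derlin of secretory tissues, had 0 reads in CEL and 3 reads in Control, too few for a fold, and 77.0% of its exonic bases overlap SMARCB1 on the other strand.

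Of the 4 sensors and transcription factors, 1 was lower, CREB3L2, beside 10.2% of all measured genes. XBP1 lay just within the mark. CREB3L2 (ENSG00000182158; chromosome 7, 137874979 to 138002086, minus strand), a membrane-held factor that drives secretory genes such as those of the COPII coat, stood at 64.5 FPKM (2939 reads) in CEL and 102 FPKM (4016 reads) in Control, 1.59-fold lower (1.51 to 1.66). XBP1 (ENSG00000100219; chromosome 22, 28794555 to 28800597, minus strand) stood at 38.4 FPKM (1037 reads) in CEL and 56.9 FPKM (1323 reads) in Control, a ratio of 0.675 (0.622 to 0.733). Its log2 fold of -0.55 lay just within the 1.5-fold mark, and was past it at -0.60 on the TPM scale, -0.61 with median scaling and -0.64 with upper quartile scaling. The files give reads per gene, so the spliced and unspliced forms of XBP1 were not told apart.

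The sensors ERN1 and ATF6 lay within 1.5-fold. ERN1, which splices XBP1 mRNA, stood at 14.6 FPKM (411 reads) in CEL and 11.1 FPKM (268 reads) in Control, a ratio of 1.32 (1.13 to 1.55). ATF6 stood at 28.0 FPKM in CEL and 26.4 FPKM in Control, a ratio of 1.06 (0.993 to 1.13). EIF2AK3, the third sensor, which is no member of the set, stood at 8.98 FPKM in CEL and 8.94 FPKM in Control.

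To set these genes in their pathway, 6 further lists held 198 genes outside the 44, of which 188 were measured. The list of protein entry and early processing held the largest share of higher genes. Of its 41 measured genes, 14 (34.1%) passed the 1.5-fold mark upward and 0 passed it downward, beside 8.97% and 10.2% of all measured genes, and the median log2 fold was 0.35. With the trend of the log2 fold with gene length removed, 7 genes of this list were higher and 1 was lower. Over all 13745 measured genes, 5.81% were higher and 1845 were lower at that setting. The 7 included EMC3 and TRAM2 but not OST4 or DAD1. OST4, a small subunit of the oligosaccharyltransferase that attaches N-glycans, stood at 15.2 FPKM (127 reads) in CEL and 6.39 FPKM (46 reads) in Control, 2.38-fold higher (1.69 to 3.41), and 21.0% of its exonic bases overlap another gene. EMC3, of the EMC complex that inserts membrane proteins, stood at 68.8 FPKM in CEL and 33.2 FPKM in Control, 2.07-fold higher (1.89 to 2.27). DAD1, another oligosaccharyltransferase subunit, stood at 184 FPKM in CEL and 96.9 FPKM in Control, 1.90-fold higher (1.74 to 2.07). TRAM2, a translocation-associated protein, stood at 119 FPKM in CEL and 63.2 FPKM in Control, 1.89-fold higher (1.84 to 1.95).

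Split by complex after the values were seen, the list held higher genes in several groups, to be read beside 8.97% of all measured genes higher and 50.2% with log2 folds above 0. Of the 5 signal peptidase genes, which cut the leader from entering chains, 3 were higher (SPCS1, SPCS2 and SEC11C) and 5 had log2 folds above 0, though 58.1% of the SPCS1 exonic bases overlap another gene. Of 12 oligosaccharyltransferase genes, 4 were higher (OST4, DAD1, TMEM258 and OSTC) and 11 were above 0, with 20.6% of the TMEM258 exonic bases in another gene. These 4 are short, at 486, 511, 712 and 712 bases, and lay within the 1.5-fold mark with the length trend removed. Of 8 genes of the signal recognition particle and its receptor, SRPRB was higher, with 21.1% of its exonic bases in another gene, and 8 were above 0. Of the 7 measured genes of the EMC complex, 3 were higher (EMC3, EMC7 and EMC8), 5 were above 0 and 2 were below 0. SSR4, the delta subunit of TRAP, stood at 44.04 FPKM in CEL and 27.4 FPKM in Control, 1.61-fold higher (1.42 to 1.81). With the length trend removed, EMC7, EMC8 and SSR4 also lay within the mark. SEC62, an accessory of the channel, stood at 120.5 FPKM in CEL and 117 FPKM in Control.

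The further folding genes held 2 of 33 higher (6.06%, beside 8.97% of all) and 0 lower (beside 10.2%), with a median of 0.24. PPIB, a prolyl isomerase of the secretory pathway, stood at 33.0 FPKM (469 reads) in CEL and 13.5 FPKM (165 reads) in Control, 2.45-fold higher (2.05 to 2.94), with 27.2% of its exonic bases in another gene. SELENOK, a small selenoprotein of the membrane, stood at 44.8 FPKM in CEL and 27.1 FPKM in Control, 1.65-fold higher (1.44 to 1.90). DNAJB9, a BiP cochaperone, stood at 24.99 FPKM in CEL and 16.4 FPKM in Control, with a log2 fold of 0.58 just within the mark. RCN2, a calcium-binding protein, stood at 40.7 FPKM in CEL and 60.9 FPKM in Control, with a log2 fold of -0.57. The number higher was 6 with a pseudocount of 0.1 FPKM and 1 with the length trend removed. The number lower was 3 on the TPM scale, 2 scaled to the median ratio, 5 scaled to the upper quartile and 3 with the trend removed.

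The further degradation genes held 2 of 42 higher (4.76%, beside 8.97% of all), AUP1 and HM13, and 0 lower (beside 10.2%), with a median of 0.13. The number higher was 1 on the TPM scale, with either of the 2 rescalings and with the length trend removed, and 1 gene was lower when scaled to the upper quartile. AUP1, which brings a ubiquitin-conjugating enzyme to the ligases, stood at 149.6 FPKM in CEL and 90.2 FPKM in Control, 1.66-fold higher (1.56 to 1.76), with 18.3% of its exonic bases in another gene. HM13, the signal peptide peptidase, stood at 469 FPKM in CEL and 311 FPKM in Control, 1.51-fold higher (1.46 to 1.56). SELENOS, a membrane anchor for the VCP ATPase, had a log2 fold of 0.45, and ATXN3, a deubiquitinase that works with VCP, had -0.50. The further glycan genes held 0 of 15 on either side (1 lower in 5 of the 8 other settings), with a median of -0.14, and the largest log2 folds were those of FBXO2 (-0.57), MAN1B1 (-0.40), MCFD2 (0.39) and MAN1C1 (-0.34). The export genes held 0 of 31 higher and 1 lower (3.23%, beside 10.2% of all), with a median of 0.02. The number lower was 3 on the TPM scale and with either rescaling, 2 with the trend removed, and 0 with 5 FPKM added as the pseudocount. The lower one was SEC31B, a COPII coat subunit, at 2.97 FPKM in CEL and 6.13 FPKM in Control, with 18.4% of its exonic bases in another gene, and the COPII genes SEC24A (-0.55), SEC23A (-0.54) and SEC16A (-0.38) followed within the mark.

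The signalling list was mixed. Of 26 measured genes, 5 were higher (19.2%, beside 8.97% of all) and 3 were lower (11.5%, beside 10.2%). The number higher was 3 when scaled to the upper quartile or with the length trend removed, and the number lower was 1 with a pseudocount or a filter of 5 FPKM. PPP1R15A, which reverses the translation block set by PERK, stood at 60.5 FPKM in CEL and 27.8 FPKM in Control, 2.18-fold higher (2.01 to 2.36). DDIT3, the stress factor CHOP, stood at 4.93 FPKM (76 reads) in CEL and 2.41 FPKM (32 reads) in Control, 2.05-fold higher (1.34 to 3.20), and 39.6% of its exonic bases overlap another gene. TRIB3, a pseudokinase induced with CHOP, stood at 27.8 FPKM in CEL and 16.3 FPKM in Control, 1.71-fold higher (1.498 to 1.96). ATF4 and BAX were the other two higher genes. CREB3L3, a liver and gut relative of CREB3L2, stood at 0.271 FPKM (7 reads) in CEL and 1.84 FPKM (41 reads) in Control. Its ratio was 6.80-fold lower (3.02 to 18.0), on few reads. CREB3L3 passed the 1 FPKM filter through Control alone, the library in which it was higher, so its count as lower is of little weight. CREB3L4 and TXNIP were the other two lower genes.

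**Figure D3:**
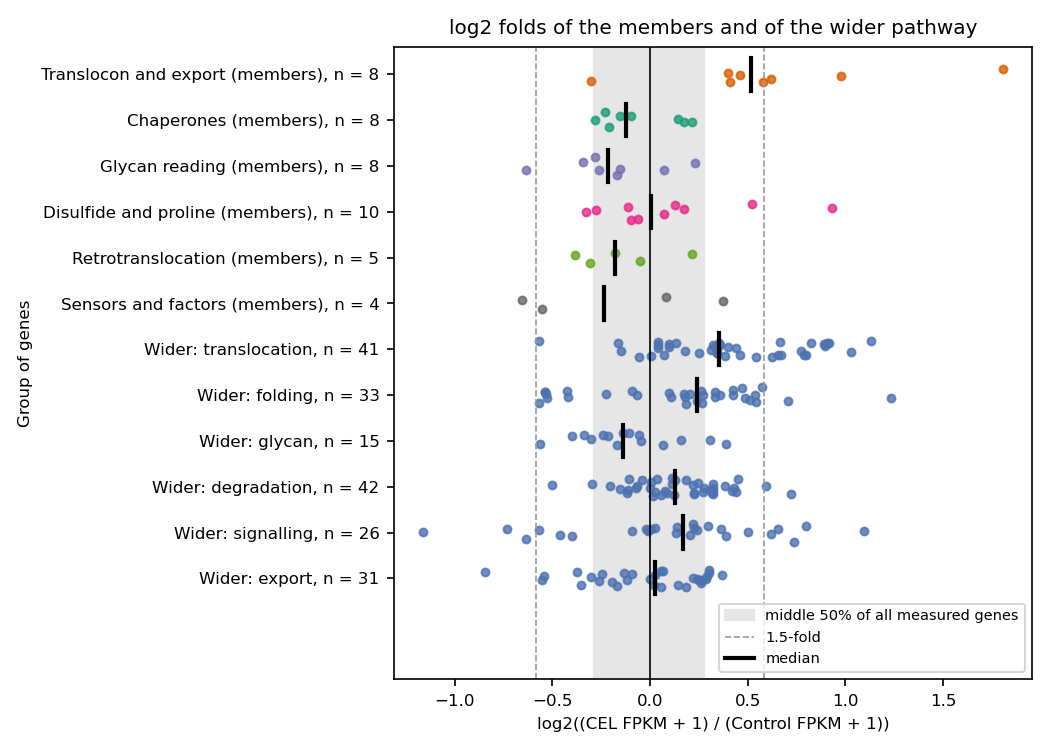
log2 folds of the members by role and of the wider lists of the pathway (1 point per measured gene; black bars are medians; the grey band spans the quartiles of all measured genes; dashed lines are 1.5-fold). The medians of the translocon and export members (0.52, SEC24D included) and of the wider translocation list (0.35) lie right of the grey band. Those of the other groups lie within it.

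Gene length moved with these values. Across 8377 genes that reached 10 FPKM in either library, Spearman's correlation of log2 fold with deposited length was -0.29, and over the 43 members it was -0.22; genes are not independent replicates, and these are descriptions. SEC61B (612 bases) and SEC61G (636 bases) are the shortest members. With the trend subtracted, the log2 fold of SEC61B was 0.11, within the 1.5-fold mark, that of SEC61G was 1.33 and that of SSR3 was 0.83. SEC61A1, at 1908 bases, was at 0.59 after subtraction, just past the mark. CALR is also short, at 912 bases, and its log2 fold was -0.85 after subtraction. The part of length in the results was not tested further.

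**Figure D4:**
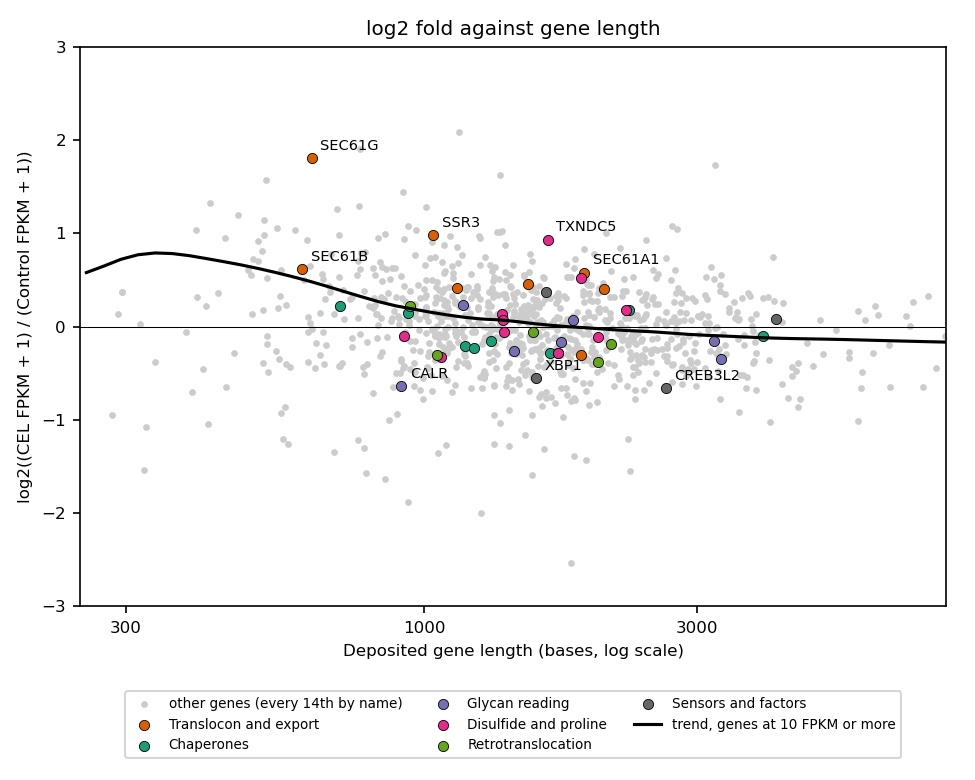
log2 fold against deposited gene length (log axis) for the measured members, coloured by role, and for every 14th other measured gene by name (grey), with the trend over genes at 10 FPKM or more (black). SEC61B lies on the trend of short genes, SEC61G and SSR3 lie above it, and CALR lies below it.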

How the data were processed

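The authors deposited 1 table of FPKM for 60978 genes, with gene length, GRCh38 coordinates and names; the other deposited measurement used was the length. HTSeq 0.5.4 and GRCh38 are named, per the submitters' processing notes. The sources used here give no aligner, annotation release, filter or strand setting, and reads of overlapping genes may not have been told apart. Whole reads were recovered from the deposited FPKM: 68.7% of detected genes gave whole reads at the printed length and a further 31.3% at 1 length shared by both libraries (relative tolerance 1e-06), which accounted for 100% of both totals. The 354 genes without a name (0.265% of CEL reads and 0.298% of Control reads) were left out. Promoter sequences are from RefSeq (GRCh38.p14). Replicates, and therefore tests and p-values, were not available.

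The 44 members, their roles and the further lists were chosen with earlier results of these data known. Named were all members and, in each further list, the 4 measured genes with the largest absolute log2 fold; other genes named were chosen after their values were seen. Exon overlaps and transcript lengths came from GENCODE 29, in which 78.0% of 58437 matched genes had the coordinates of the table. Python 3.11.15, numpy 2.4.6, pandas 2.3.3, scipy 1.17.1, statsmodels 0.14.6 (lowess, fraction 0.3) and matplotlib 3.10.9 were used, and the steps were tested on simulated data. Alternatives covered pseudocount, filter, scaling and the length trend.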

Additional observations from a re-analysis of the deposited data

How the results depend on the processing

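With 1 library per group, leaving out a replicate was not possible, and no result has a spread between cultures. The members at least 1.5-fold higher numbered 3 or 4 and those lower 2 or 3 under the 8 other settings. The median log2 fold of the members ran from -0.15 to -0.06. The -0.15 came with upper quartile scaling, where the median of all measured genes was -0.08, beside 0.00 as reported. Over all genes, 604 were higher and 490 lower with a pseudocount of 5 FPKM, beside 1233 and 1398 as reported. With the length trend removed 799 were higher, and with a filter at 5 FPKM 744 were lower. Of the 43 measured members, 37 kept the sign of their log2 fold in every setting; ATF6, EDEM2 and TXNDC11 turned slightly negative under upper quartile scaling. Subtracting the length trend turned HSPA5 to 0.02, MANF to -0.06 and SDF2L1 to -0.17. In the wider entry list, 10 genes were higher with upper quartile scaling, beside 6.80% of all measured genes at that setting. Few reads limit CRELD1, TXNDC5 and DERL3 among the members. Other genes overlap 60.6% of the exonic bases of TXNDC5 and 77.0% of those of DERL3. Whether reads were lost to this overlap was not tested. No paired analysis was possible because each group has 1 library.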
